A study of Mus musculus with 32 samples.

Results

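The 40 genes described here encode proteins that make ribosomes, together with Myc, a transcription factor known to drive their transcription. They were taken by symbol and Ensembl gene ID from the count tables of 2 mouse cell lines, and all 40 were found in both tables, among 27843 gene IDs in the AML12 table and 55414 in the HL-1 table. The members belong to 7 roles: RNA polymerase I (Pol I) transcription (7 genes), the transcription factor Myc, abundant nucleolar proteins (2), box C/D small nucleolar ribonucleoproteins (snoRNPs; 3), box H/ACA snoRNPs (5), small-subunit processing (12) and large-subunit assembly (10). All 40 are annotated as protein-coding and lie on 18 chromosomes, with at most 5 on any chromosome.

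The RNA-seq libraries, 32 from total RNA, form 8 groups of 4. AML12, a mouse hepatocyte line, was sampled at 25 h and 17 h, each time as DEX-treated cells and as cells given a control treatment. HL-1, labelled as mouse cardiomyocytes, was kept in medium that AML12 cells had conditioned, either after DEX synchronization of those cells (CM) or without it (control medium), with libraries made at 28 h and 16 h. The count columns of the CM libraries are named DEX, and the sample descriptions tie each of them to a CM sample. DEX is the labels' own abbreviation. The descriptions write the hours with the prefix ZT, which they do not spell out or tie to a starting event. Each condition was sampled in 1 cell line only, and nothing in the labels says that a group's 4 libraries are separate cultures, so p-values measure the spread between these libraries, which may be technical.

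Ribosome production starts in the nucleolus, where Pol I transcribes the ribosomal RNA precursor. snoRNPs then guide chemical modification of that RNA, and large protein assemblies cut, fold and package it into the small and the large subunit. Growing and dividing cells are known to express these genes strongly, in liver as in other tissues, and MYC with its partner MAX binds E-box motifs near many of them.

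Library totals ranged from 15032450 to 17472840 counts in AML12 and from 15734197 to 19304043 in HL-1, and every member passed the filter on low counts in both lines. AML12 libraries held the hepatocyte genes Hnf4a (205 CPM) and Apob (154 CPM) but little Alb (1.43 CPM), where CPM are read counts scaled to a common library total. HL-1 libraries held the cardiac genes Tnnt2 (34.5 CPM) and Gata4 (18.1 CPM), whereas the cardiomyocyte genes Myh6, Myh7, Actc1 and Nppa had at most 5 counts each over all 16 libraries and Pln had 0, so the label of cardiomyocytes was not borne out by these defining markers. Tnnt2 and Gata4 were at no lower a level in AML12 (55.1 and 22.8 CPM), as was Nkx2-5, another cardiac factor (4.01 CPM in AML12 and 2.92 CPM in HL-1). HL-1 libraries also held fibroblast markers, among them the collagen genes Col3a1 (1455 CPM), Col1a2 (844 CPM) and Col1a1 (175 CPM). The filament gene Vim stood at 6284 CPM in HL-1 and 2377 CPM in AML12, and Col1a1 at 3.99 CPM in AML12. Of the rest of that list HL-1 had 52.0 CPM of Pdgfra, 22.9 CPM of Dcn and 5.54 CPM of Postn. Thy1 was near 0 in HL-1 (0.014 CPM). In AML12, DEX replicate 2 at 17 h stood apart from the other DEX libraries at 17 h (chi-square per degree of freedom over all genes of 13.1 to 17.3, against 2.35 to 3.87 among the others). In HL-1, control medium replicate 3 at 16 h did likewise (7.55 to 15.6, against 2.64 to 5.32).

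Levels were also measured as CPM per kilobase of exon, using the annotated exon length of each gene. On this scale Npm1 was highest in both lines, at 366 in HL-1 and 284 in AML12 (mean of 16 libraries). Wdr12, a large-subunit assembly factor, was lowest on this scale, at 4.33 and 2.57 CPM per kb. These ranks depend on the exon length used, which was 11955 bases for Wdr12, 10188 for Ncl and 2665 for Npm1. By CPM alone, Wdr12 in replicate 1 of HL-1 CM at 16 h had 81.0, above Rrp9 with 32.8. In that library Ncl, with 1838 CPM, was above Npm1, with 1268 CPM. The order of the 40 members was similar in the lines (Spearman's rho = 0.86 across the 40 genes, a description, since gene lengths and sequences are shared). Ncl stood at 137 CPM per kb in HL-1 and 58.3 in AML12, and Ddx21, an RNA helicase, at 64.7 and 28.2. Polr1c, a subunit shared by Pol I and Pol III, ran the other way, with 26.6 CPM per kb in HL-1 and 62.1 in AML12. Levels were set across tables that were counted separately, so these differences between the lines were not tested. Exons of 15 of the 40 members share bases with a gene on the opposite strand, and Npm1 is known to have near-identical processed copies in the genome, so these counts are less certain than those of the other members. Bop1 is among the 15: it shares 1.69% of its exon bases with Mroh1. Over the AML12 libraries Mroh1 had 101179 counts and Bop1 44846. Mybbp1a shares 2.26% with Spns2, which had 120840 counts in AML12 where Mybbp1a had 84445. Nop56, Dkc1, Heatr1, Rrp9, Rrp1b and Gnl3 also had fewer AML12 counts than the opposite-strand gene they overlap.

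The members' promoters were searched for the canonical E-box CACGTG, which reads the same on both strands. The reason was that 39 of the 40 members fell between the times of HL-1, as given below. In AML12 the members moved in both directions. RefSeq windows from 250 bases before to 50 bases after a transcription start (GRCm38.p6) were found for 34 of the 40 members. The motif was present in at least 1 window of 7 of these 34 genes (20.6%): Rrn3, Mybbp1a, Utp20, Wdr43, Ltv1, Pes1 and Nop2. Among all genes with such windows 8.09% had it. The stretches below hold the motif, in capitals, in Rrn3, the member with a pair of matches, in Nop2 and Utp20, whose RNA fell by more than 1 log2 unit over time in HL-1, and in Pes1, which fell least in control medium among the members that fell. All are given 5′ to 3′ on the gene's own strand.
Rrn3, upstream match, chr16:13780457-13780516, plus strand: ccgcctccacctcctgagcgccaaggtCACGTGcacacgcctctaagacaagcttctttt
Rrn3, downstream match, chr16:13780624-13780683, plus strand: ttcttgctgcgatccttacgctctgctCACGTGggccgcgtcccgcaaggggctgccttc
Nop2, chr6:125131796-125131855, plus strand: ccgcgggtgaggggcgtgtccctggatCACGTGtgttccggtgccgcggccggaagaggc
Utp20, chr10:88826765-88826804, minus strand: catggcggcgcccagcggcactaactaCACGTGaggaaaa
Pes1, chr11:3963950-3964009, plus strand: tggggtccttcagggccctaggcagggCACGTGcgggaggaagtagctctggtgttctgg
The 7 genes with the motif had a median log2 fold change of -0.85 between 28 h and 16 h in HL-1 control medium, and the 27 genes with a window and no match had -1.01. In AML12 at 17 h the median for DEX against control was 0.18 with the motif and 0.20 without. These medians describe letters in a short window, not binding. No window was found for Tcof1, Myc, Npm1, Fbl, Rrp12 and Bop1.

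The largest change of the ribosome biogenesis genes in the series lay between the time points of HL-1. In CM 39 of the 40 members were lower at 28 h than at 16 h and none was higher, where 32.9% of all 14450 genes tested were called lower and 32.6% higher. In control medium, with other libraries, the same 39 were lower and none higher, beside 31.3% and 31.5% of all genes. DESeq2 and limma-voom gave the same counts, and 39 members had an unadjusted p under 0.05 in each medium, all of them lower. The median log2 fold change of the members was -1.04 in CM and -0.999 in control medium, that is 0.487 and 0.5002 times the 16 h level, and the median of all genes tested was -0.0045 and 0.0010. In all 39 genes the 4 libraries of 28 h lay below the 4 of 16 h in each medium, where 29.4% of all genes in CM and 27.6% in control medium did. Summed over the 40 members, the libraries held 3672 to 4194 CPM in CM and 3939 to 4177 CPM in control medium at 28 h, against 7842 to 8003 CPM in CM and 7612 to 7919 CPM in control medium at 16 h. CPM is a share of each library, so whether the cells' total RNA also changed cannot be told from it, nor can fewer cells of a kind be told from less RNA per cell.

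**Figure D1:**
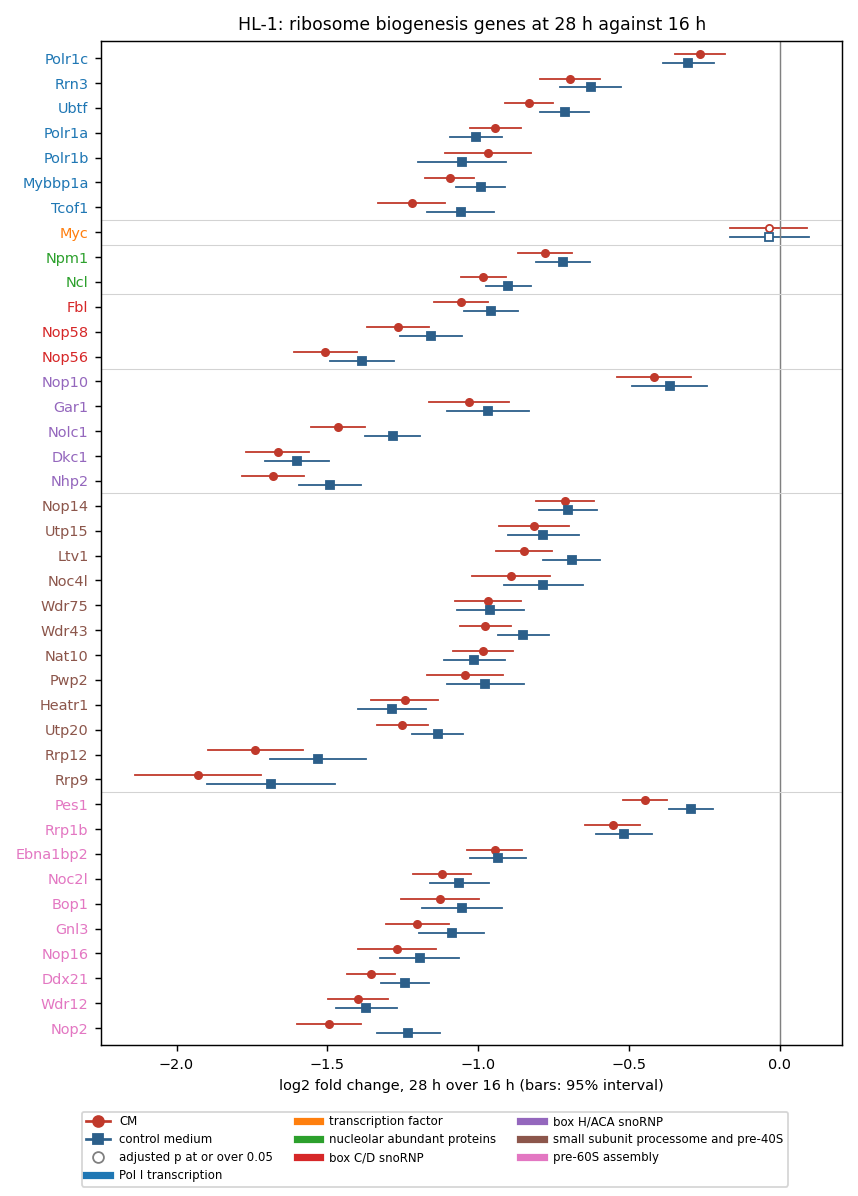
Log2 fold change of each of the 40 members at 28 h against 16 h in HL-1, in CM (red circles, upper of each pair) and control medium (blue squares), with bars of the 95% interval; open symbols did not pass an adjusted p of 0.05 and gene names are coloured by role. All points lie left of 0, and Myc alone has bars that cross 0.

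The single member that did not pass the test of time in HL-1 was Myc. It had 56.4, 56.7, 59.6 and 64.02 CPM in CM and 58.6, 64.7, 57.5 and 62.1 CPM in control medium at 28 h, against 58.4, 66.6, 60.5 and 57.3 CPM in CM and 53.6, 70.2, 62.2 and 62.9 CPM in control medium at 16 h. The groups overlapped in both media. The log2 fold change was -0.036 ± 0.066 in CM (95% interval -0.17 to 0.092) and -0.034 ± 0.066 in control medium (-0.16 to 0.096). Of 10 listed genes of the MYC network, which hold MYC relatives, the partner MAX and antagonists that compete for MAX, 8 were tested in HL-1. Of these 4 rose and 2 fell at 28 h in each medium. Of all genes 32.6% rose and 32.9% fell in CM, and 31.5% and 31.3% in control medium. Mxd4, an antagonist that pairs with MAX, rose by 1.99 ± 0.063 in CM and 2.07 ± 0.066 in control medium. The antagonist Mxi1 rose by 1.73 ± 0.050 and 1.78 ± 0.051, and Mxd1 by 1.01 ± 0.11 and 1.10 ± 0.11. Mxd3 fell (-0.55 ± 0.095 and -0.79 ± 0.097), as did Mlx (-0.41 ± 0.072 and -0.32 ± 0.072), whereas Max itself had -0.075 ± 0.045 and -0.023 ± 0.045 and did not pass.

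Genes of Pol I transcription were lower at 28 h in 7 of 7 cases, with a median log2 fold change of -0.94 in CM and -0.99 in control medium. Polr1b, a core catalytic subunit, had 19.4, 23.6, 19.9 and 19.95 CPM in CM and 18.2, 21.5, 19.8 and 21.9 CPM in control medium at 28 h, against 43.9, 41.5, 37.9 and 38.7 CPM in CM and 39.99, 45.9, 39.6 and 43.2 CPM in control medium at 16 h. The times were well separated, with -0.97 ± 0.073 in CM and -1.05 ± 0.074 in control medium. Polr1a, the largest subunit, had -0.94 and -1.01. Polr1c fell less, with -0.26 ± 0.043 in CM and -0.30 ± 0.043 in control medium, and its 95% intervals did not reach those of Polr1a or Polr1b. Rrn3, the initiation factor that brings Pol I to its promoter, had 64.7, 68.4, 60.2 and 57.5 CPM in CM and 68.1, 64.9, 65.03 and 70.7 CPM in control medium at 28 h, against 100.3, 102, 104 and 100.5 CPM in CM and 109, 100.5, 96.9 and 109 CPM in control medium at 16 h. Its log2 fold change was -0.70 ± 0.051 in CM and -0.63 ± 0.051 in control medium, without overlap. Ubtf, which binds and opens ribosomal DNA, had 135, 146, 133 and 134 CPM in CM and 139, 145, 139 and 151 CPM in control medium at 28 h, against 233, 249.5, 250.5 and 243 CPM in CM and 220.5, 236, 246 and 237 CPM in control medium at 16 h. It fell in both media (-0.83 ± 0.041 in CM and -0.71 ± 0.042 in control medium). Tcof1, the nucleolar protein treacle, had -1.22 and -1.06, and Mybbp1a, a nucleolar MYB-binding protein, -1.09 and -0.99.

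The abundant nucleolar proteins fell too. Ncl, which encodes nucleolin, had 955, 1004, 918 and 869.7 CPM in CM and 971, 999.5, 942 and 1008 CPM in control medium at 28 h, against 1838, 1809, 1914 and 1842 CPM in CM and 1831, 1868, 1784 and 1832 CPM in control medium at 16 h. Npm1, which encodes nucleophosmin, had 760.2, 771, 686 and 655 CPM in CM and 732, 754, 698 and 765 CPM in control medium at 28 h, against 1268, 1175, 1259 and 1224 CPM in CM and 1262, 1223, 1152 and 1214 CPM in control medium at 16 h. Neither gene's times overlapped in either medium, with log2 fold changes of -0.98 ± 0.039 in CM and -0.90 ± 0.039 in control medium for Ncl, and -0.78 ± 0.046 and -0.72 ± 0.046 for Npm1.

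The 3 members that are core proteins of box C/D snoRNPs, which methylate ribosomal RNA, were all lower at 28 h. Fbl, the methyltransferase fibrillarin, had 58.1, 60.2, 57.4 and 54.8 CPM in CM and 61.3, 61.6, 56.1 and 60.98 CPM in control medium at 28 h, against 123, 122, 116 and 119 CPM in CM and 112, 125, 112 and 116 CPM in control medium at 16 h. Its change was -1.06 ± 0.045 in CM and -0.96 ± 0.046 in control medium, beside those of its partners Nop58 (-1.26 ± 0.052 and -1.16 ± 0.053) and Nop56 (-1.51 ± 0.053 and -1.38 ± 0.054). Among the box H/ACA genes, which convert uridine to pseudouridine, Dkc1, the pseudouridine synthase dyskerin, had 45.99, 54.3, 44.98 and 41.9 CPM in CM and 49.3, 49.5, 49.2 and 49.5 CPM in control medium at 28 h. At 16 h it had 148, 146, 152 and 148 CPM in CM and 144, 153, 146 and 157 CPM in control medium. Every library of 28 h was below every library of 16 h, with log2 fold changes of -1.66 ± 0.053 in CM and -1.60 ± 0.054 in control medium. Nhp2, a core protein of the same particle, had 34.9, 36.7, 33.4 and 31.9 CPM in CM and 38.8, 43.3, 39.98 and 40.1 CPM in control medium at 28 h, against 110.3, 113, 104 and 112 CPM in CM and 105, 111, 119 and 121 CPM in control medium at 16 h, a change of -1.68 ± 0.053 and -1.49 ± 0.053. The other core proteins fell by less: Gar1 had -1.03 ± 0.068 in CM and -0.97 ± 0.069 in control medium, and Nop10 -0.42 ± 0.063 and -0.37 ± 0.064. Transcripts for subunits of 1 particle thus differed in the size of their fall, and the intervals of Nop10 lay apart from those of Dkc1 and Nhp2.

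In the small-subunit group all 12 genes were lower at 28 h, with a median of -0.98 in CM and -0.97 in control medium. Rrp9, a protein of the U3 snoRNP, showed the largest fall of all members, with 8.78, 10.4, 8.41 and 10.9 CPM in CM and 11.1, 11.9, 8.83 and 10.6 CPM in control medium at 28 h, against 32.8, 41.6, 34.8 and 37.8 CPM in CM and 27.2, 34.2, 37.9 and 36.98 CPM in control medium at 16 h. The highest library of 28 h was under the lowest of 16 h in each medium, and the log2 fold change was -1.93 ± 0.11 in CM and -1.69 ± 0.11 in control medium. Rrp12, a factor for export of the small subunit, had 13.8, 17.7, 13.3 and 13.00 CPM in CM and 16.1, 16.1, 14.6 and 18.2 CPM in control medium at 28 h, against 48.1, 48.9, 47.1 and 49.4 CPM in CM and 43.00, 51.1, 48.7 and 45.02 CPM in control medium at 16 h, a change of -1.74 ± 0.080 and -1.53 ± 0.081. Heatr1 and Utp20, large scaffolds of the small-subunit processome, also fell, with -1.24 and -1.25 in CM and -1.29 and -1.13 in control medium. The smallest falls of the group were those of Nop14 (-0.71 in CM, -0.70 in control medium) and, in control medium, Ltv1, which acts on late small-subunit precursors (-0.69). The remaining genes of the group, Utp15, Pwp2, Wdr43, Wdr75, Noc4l and Nat10, an RNA acetyltransferase, lay between -1.04 and -0.82 in CM and between -1.01 and -0.78 in control medium.

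The 10 large-subunit assembly genes were all lower, with a median of -1.16 in CM and -1.08 in control medium, but over a wide range. Pes1, Bop1 and Wdr12 encode the 3 proteins of the PeBoW complex, known to be needed for large-subunit maturation. Their log2 fold changes were -0.45 ± 0.037, -1.13 ± 0.067 and -1.40 ± 0.050 in CM, and -0.29 ± 0.037, -1.05 ± 0.067 and -1.37 ± 0.051 in control medium. Pes1 averaged 96.8 ± 3.22 CPM in CM and 103 ± 3.21 CPM in control medium at 28 h, against 132 ± 2.31 CPM in CM and 127 ± 2.49 CPM in control medium at 16 h (SD, n = 4). Nop2, a methyltransferase of large-subunit RNA, had -1.49 ± 0.054 in CM and -1.23 ± 0.053 in control medium, and Ddx21 -1.35 and -1.24. Gnl3, the GTP-binding protein nucleostemin, had -1.20 and -1.09. Rrp1b fell least after Pes1, with -0.55 ± 0.047 and -0.52 ± 0.048. Nop16, Noc2l and Ebna1bp2 lay between -1.27 and -0.95 in CM and between -1.19 and -0.93 in control medium.

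The sizes of the falls were alike in the media, which share no library: Pearson's r across the 40 members was 0.98 and Spearman's rho 0.97, given as a description. How far a gene fell bore little relation to its level (r = 0.15 between log2 mean CPM per kb and the change in control medium). Beyond the members, 117 further genes of ribosome biogenesis were listed and 115 were tested in HL-1. Of these 104 fell and 1 rose at 28 h in CM, and 101 fell and 2 rose in control medium. Of all genes 32.9% fell and 32.6% rose in CM, and 31.3% fell and 31.5% rose in control medium. The members and the further genes were chosen with earlier results of these data known, so these counts are no independent evidence. The largest falls were those of Exosc2 and Exosc1, subunits of the RNA exosome that trims precursors, and Pno1, a small-subunit factor. Exosc2 had log2 fold changes of -1.30 ± 0.079 in CM and -1.21 ± 0.080 in control medium, Exosc1 -1.26 ± 0.064 and -1.16 ± 0.064, and Pno1 -1.27 ± 0.061 and -1.16 ± 0.062. Taf1b, of the Pol I selectivity factor, was the gene that rose in both, by 0.35 ± 0.064 and 0.40 ± 0.065. Of 9 snoRNA host genes tested, 8 fell in CM and 6 in control medium, with Snhg4 at -1.27 ± 0.11 and -1.16 ± 0.11.

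Other groups of genes moved with the same comparison. All 15 S phase marker genes were lower at 28 h in both media, and their summed level was 1891 to 2172 CPM in CM and 2059 to 2239 CPM in control medium, against 3695 to 3737 CPM and 3583 to 3690 CPM at 16 h. Of 8 listed fibroblast markers 7 were tested and 6 were higher at 28 h in each medium, with a sum of 8880 to 9947 CPM in CM and 9473 to 10005 CPM in control medium at 28 h, against 7767 to 8448 CPM and 7571 to 8845 CPM at 16 h. Of all genes 32.9% fell and 32.6% rose in CM, and 31.3% and 31.5% in control medium. The part of these markers in the fall of the ribosome biogenesis genes was not tested. Without control medium replicate 3 of 16 h, 39 members were again lower in control medium, with a median of -1.02.

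**Figure D2:**
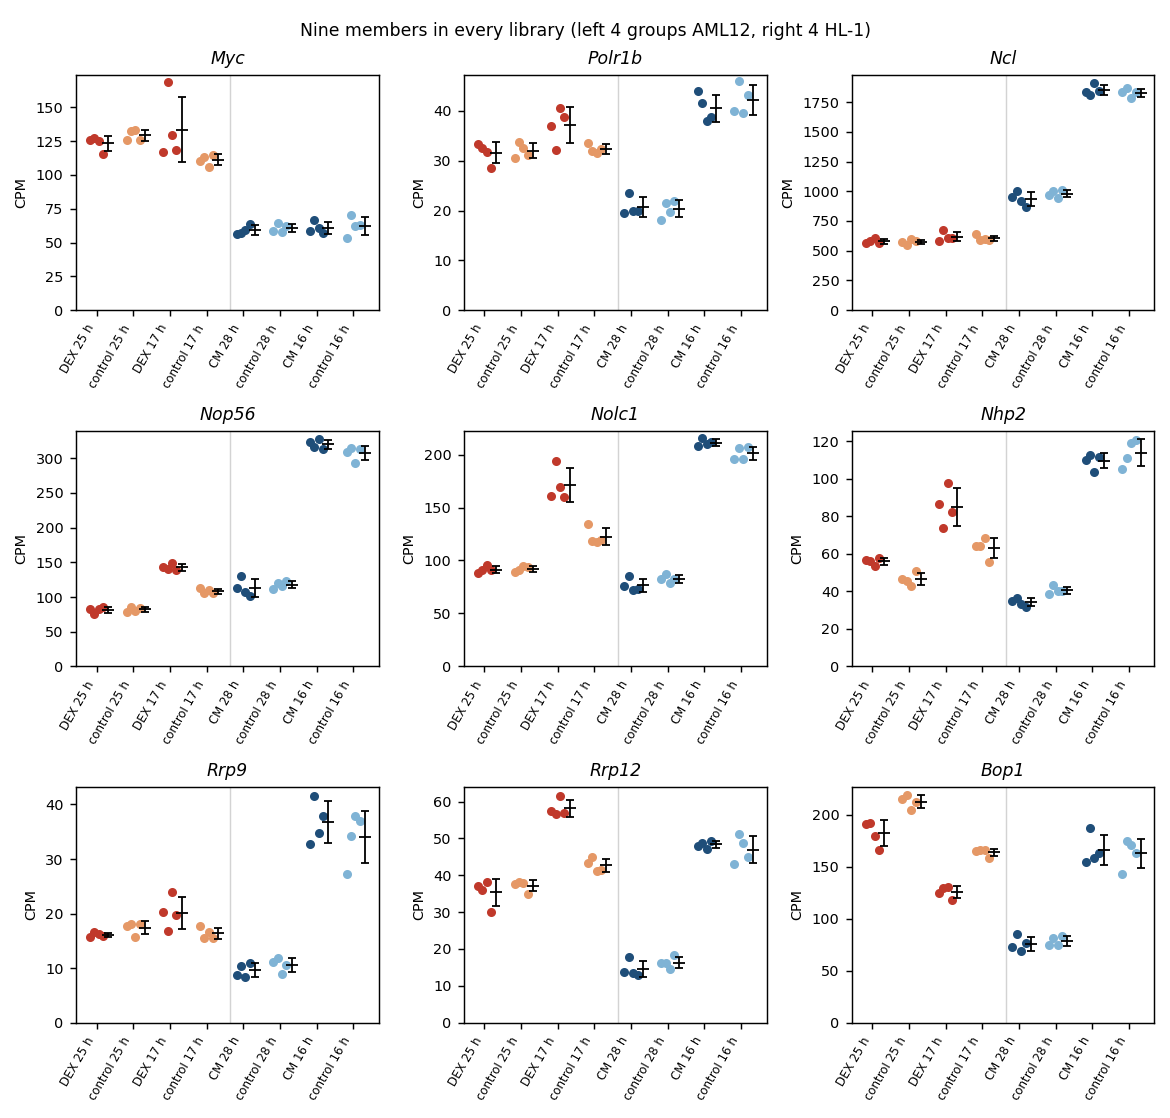
CPM of 9 members in each of the 32 libraries (points), with the mean and SD of each group beside them; the 4 groups on the left of each panel are AML12 and the 4 on the right HL-1. Ncl, Nop56, Nolc1, Nhp2, Rrp9, Rrp12 and Bop1 lie lower at 28 h than at 16 h in HL-1, whereas Myc stays between 53.6 and 70.2 CPM.

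CM and control medium differed little in these genes. At 16 h none of the 40 members passed the test in either direction by edgeR, DESeq2 or limma-voom, where 0.83% of all genes were called higher and 1.2% lower by edgeR, and 2 members had an unadjusted p under 0.05. The groups did not overlap for 2 members higher in CM and 1 lower, where 3.28% and 3.52% of all genes did so. The 95% intervals of all 40 log2 fold changes lay between -0.19 and 0.29. At 28 h none was higher (beside 0.706% of all genes) and 2 were lower (5.00% of the members, beside 1.22% of all genes) by each of the same tools, 8 had an unadjusted p under 0.05, and the intervals ran from -0.37 to 0.18. No member lay wholly above control medium and 4 lay wholly below it, where 3.1% and 4.64% of all genes did. Nop2 had 38.6, 42.3, 36.3 and 37.1 CPM in CM at 28 h, against 49.02, 42.5, 45.2 and 48.1 CPM in control medium. The groups did not overlap, and the log2 fold change was -0.26 ± 0.057 (adjusted p = 0.012). Nhp2, with the CM and control medium values at 28 h given above, also did not overlap and changed by -0.24 ± 0.057 (adjusted p = 0.019). Each of these calls was lost on leaving out any of 3 single libraries: CM replicate 3 or control medium replicate 1 or 4 for Nop2 (adjusted p from 0.0503 to 0.0693), and CM replicate 3 or 4 or control medium replicate 2 for Nhp2 (0.0744 to 0.104). Among cardiac markers, Tnnt2 was higher in CM at 28 h (0.65 ± 0.055) and at 16 h (0.70 ± 0.057), and the list's sum was 63.0 to 68.4 CPM in CM and 45.3 to 49.3 CPM in control medium at 28 h. Only 3 of the 10 listed genes (Tnnt2, Gata4 and Nkx2-5) were over 1 CPM in HL-1. The sum thus rests mainly on Tnnt2 and Gata4. The part of these markers in the differences of Nop2 and Nhp2 was not tested.

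Of the 40 estimates at 28 h, 34 were below 0, with a median of -0.062, beside -0.011 over all genes. No member passed a test of change in the effect of CM between 28 h and 16 h by edgeR, DESeq2 or limma-voom, where 0.104% of all genes passed upward and 0.173% downward by edgeR. Here 6 members had an unadjusted p under 0.05, and the largest difference was that of Nop2, at -0.26 ± 0.075 (adjusted p = 0.25). Myc changed by -0.036 ± 0.066 at 28 h and -0.034 ± 0.066 at 16 h, Polr1b by 0.029 ± 0.078 and -0.058 ± 0.068, Ncl by -0.066 ± 0.038 and 0.017 ± 0.038, and Fbl by -0.057 ± 0.047 and 0.044 ± 0.043, none past the threshold. Of the 115 further biogenesis genes tested, 1 was lower at 28 h, Wdr36 of the small-subunit processome (-0.21 ± 0.046), beside 1.22% of all genes. None differed at 16 h.

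In AML12 at 17 h DEX-treated cells had more RNA of most ribosome biogenesis genes than control cells, by small amounts. Of the 40 members 26 were higher (65%, beside 20.5% of all 14114 genes tested), 3 were lower (beside 17.9%) and 11 did not pass. The median log2 fold change was 0.19, or 1.14-fold, and that of all genes 0.0044. In 20 members the 4 DEX libraries all lay above the 4 controls, and in 3 all below, where 18.3% and 15.8% of all genes did so. The summed level was 4403 to 4585 CPM in DEX cells and 4156 to 4302 CPM in control cells. Part of this list had been looked at in the same libraries before, so its direction is no independent evidence. Without DEX replicate 2 of 17 h, 27 members were higher and 3 lower, with a median of 0.17.

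**Figure D3:**
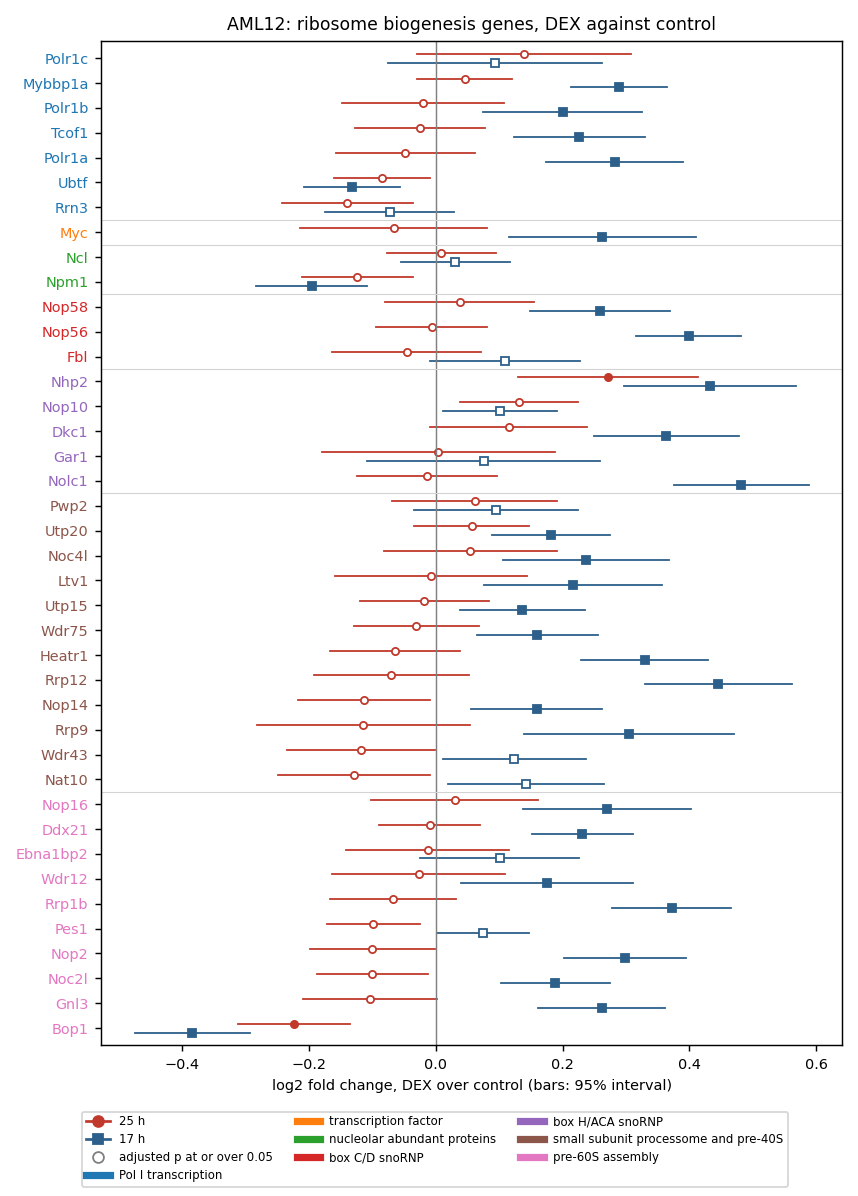
Log2 fold change of each of the 40 members in DEX against control AML12 cells at 25 h (red circles, upper of each pair) and 17 h (blue squares), with bars of the 95% interval; open symbols did not pass an adjusted p of 0.05. At 17 h 26 filled squares lie right of 0 and 3 left of it, and at 25 h only Nhp2 and Bop1 are filled.

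Among the snoRNP genes 5 of 8 rose. Nolc1, a snoRNP chaperone, had 161, 194, 169 and 160.2 CPM in DEX cells, against 135, 119, 117 and 119 CPM in control cells. All DEX libraries were above all controls, with a log2 fold change of 0.48 ± 0.054 (adjusted p = 1.0e-07), the largest rise among the members. Nhp2 had 86.4, 73.8, 97.9 and 82.3 CPM in DEX cells and 64.04, 64.1, 68.3 and 55.9 CPM in control cells, again without overlap (0.43 ± 0.069). Nop56 had 144, 139.9, 149.7 and 138 CPM in DEX cells and 112, 106, 110.2 and 105 CPM in control cells (0.40 ± 0.042), and its groups were equally separate. Dkc1 rose by 0.36 and Nop58 by 0.26. Fbl, with 119, 103, 119.6 and 121 CPM in DEX cells and 112, 110.3, 99.8 and 107 CPM in control cells, overlapped and did not pass (0.11 ± 0.060), nor did Gar1 (0.076) or Nop10 (0.10). Fbl lay lowest in DEX replicate 2, and without that library it was called higher (0.16, adjusted p = 0.020, and so was Ebna1bp2 of the large-subunit group, 0.16, adjusted p = 0.029).

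Of the 7 Pol I genes 4 rose: Mybbp1a (0.29 ± 0.038), Polr1a (0.28 ± 0.055), Tcof1 (0.23 ± 0.053) and Polr1b (0.20 ± 0.064). Polr1b had 36.95, 32.3, 40.6 and 38.8 CPM in DEX cells and 33.6, 31.9, 31.5 and 32.4 CPM in control cells, so that DEX replicate 2 lay among the controls. Its call was lost without DEX replicate 3 or 4 or control replicate 3 (adjusted p from 0.056 to 0.088). Rrn3 had 48.4, 51.96, 44.6 and 49.7 CPM in DEX cells and 54.99, 51.3, 48.1 and 50.5 CPM in control cells, overlapping and not past the threshold (-0.073 ± 0.052). Ubtf fell, with 181, 182, 195 and 183 CPM in DEX cells and 211, 200.1, 199 and 201 CPM in control cells (-0.13 ± 0.039, adjusted p = 0.0089), without overlap. Polr1c did not pass over all libraries (0.093 ± 0.086), but DEX replicate 2 had 106 CPM beside 155 CPM in the nearest other DEX library, and without it Polr1c was called higher (0.21, adjusted p = 0.00059). Myc had 117, 169, 129.8 and 119 CPM in DEX cells and 110.4, 113, 106 and 115 CPM in control cells. Every DEX library was above every control, DEX replicate 2 by far the most, and the log2 fold change of 0.26 ± 0.075 (adjusted p = 0.0074) was 0.13 (adjusted p = 0.026) without that library.

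Among small-subunit genes 9 of 12 rose and none fell. Rrp12 had 57.5, 56.7, 61.5 and 56.8 CPM in DEX cells and 43.2, 44.99, 41.2 and 41.5 CPM in control cells, a separate pair of groups (0.45 ± 0.059, adjusted p = 1.3e-06). Heatr1 rose by 0.33, Rrp9 by 0.30, Noc4l by 0.24, Ltv1 by 0.22, Utp20 by 0.18, Wdr75 by 0.16, Nop14 by 0.16 and Utp15 by 0.14. Without DEX replicate 2 neither Nop14 (adjusted p = 0.079) nor Utp15 (0.065) was called. Nat10 (0.14), Wdr43 (0.12) and Pwp2 (0.095) did not pass over all libraries. Of the 10 large-subunit genes 7 rose. Rrp1b had 44.03, 48.2, 45.6 and 48.9 CPM in DEX cells and 35.7, 35.7, 35.9 and 36.98 CPM in control cells, without overlap (0.37 ± 0.048). Nop2 (0.30), Nop16 (0.27), Gnl3 (0.26), Ddx21 (0.23), Noc2l (0.19) and Wdr12 (0.17) rose too, the last at an adjusted p of 0.049 that was over 0.05 in all 8 other ways of processing. Bop1 went the other way, with 124, 129, 131 and 118 CPM in DEX cells and 165, 166, 166 and 158 CPM in control cells. All its DEX libraries were below all controls (-0.38 ± 0.046, adjusted p = 3.1e-07), whereas its complex partner Pes1 did not pass (0.075 ± 0.037). Npm1 also fell, with 656, 749, 662 and 668 CPM in DEX cells and 789, 757, 796 and 789 CPM in control cells (-0.20 ± 0.044), and Ncl, with 586, 671, 611 and 604 CPM in DEX cells and 637, 594, 596 and 590.3 CPM in control cells, overlapped (0.031 ± 0.044).

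Of the 113 further biogenesis genes tested in AML12, 32 were higher and 6 lower with DEX at 17 h, beside 20.5% and 17.9% of all genes. The largest rises were those of Pno1 (0.40 ± 0.077), Rrs1, a large-subunit factor (0.39 ± 0.059), and Tex10 (0.39 ± 0.060), and the largest fall that of Shq1, a dyskerin chaperone (-0.56 ± 0.092). Of 12 RNA exosome genes 6 were higher and none lower. Of the MYC network genes 4 of 9 were higher, led by Mxd3 (0.89 ± 0.11) and with Max among them (0.22 ± 0.043), and 2 were lower, Mnt (-0.37 ± 0.048) and Mxd4 (-0.25 ± 0.043). Of 9 snoRNA host genes 4 were lower, led by Zfas1 (-0.73 ± 0.086), and 1 was higher, Snhg4 (0.23 ± 0.081). S phase markers moved with them, 14 of 15 higher in DEX cells, with sums of 1549 to 1666 CPM in DEX cells and 966 to 1076 CPM in control cells. Of 8 hepatocyte markers tested 3 were higher and 4 lower, and the sum over the list was 301 to 319 CPM in DEX cells and 410 to 448 CPM in control cells. Their part in the change of the ribosome biogenesis genes was not tested.

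At 25 h few of these genes differed between DEX and control cells by the test. Of the 40 members 1 was higher (beside 6.79% of all genes), 1 was lower (beside 4.96%) and 38 did not pass, with a median log2 fold change of -0.026. DEX libraries lay wholly above the controls for 2 members and wholly below them for 7, where 9.57% and 8.46% of all genes did. Nhp2 had 56.7, 56.3, 53.6 and 57.9 CPM in DEX cells and 46.4, 45.7, 43.00 and 50.9 CPM in control cells. The groups did not overlap, and the change was 0.27 ± 0.073 (adjusted p = 0.014), a call that was lost without control replicate 2 or 3 or DEX replicate 4 of 25 h (adjusted p from 0.057 to 0.079). Bop1 had 191, 192, 179.7 and 165 CPM in DEX cells and 215, 219, 205 and 212 CPM in control cells, again separate, and was lower by the test (-0.22 ± 0.045, adjusted p = 0.0013). The intervals of the 38 other members ran from -0.28 to 0.31. S phase markers were nevertheless higher in DEX cells at 25 h in 15 of 15 cases, with sums of 1042 to 1248 CPM in DEX cells and 688 to 736 CPM in control cells. Of the further biogenesis genes 1 was higher, Exosc8 of the RNA exosome (0.35 ± 0.086), and 10 were lower, led by Nob1, the nuclease that finishes small-subunit RNA (-0.24 ± 0.062).

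Myc had 126, 128, 125 and 115 CPM in DEX cells and 126, 132, 133 and 126 CPM in control cells at 25 h (-0.066 ± 0.075). Polr1b had 33.4, 32.6, 31.8 and 28.6 CPM in DEX cells and 30.5, 33.9, 32.6 and 31.1 CPM in control cells (-0.020 ± 0.065). Both overlapped between the groups. Rrn3 had 45.7, 45.5, 45.3 and 41.8 CPM in DEX cells and 48.05, 48.4, 50.6 and 49.4 CPM in control cells, separate groups whose difference did not pass (-0.14 ± 0.053, adjusted p = 0.093). Ubtf had 232, 227, 234 and 217 CPM in DEX cells and 236, 246, 247 and 235 CPM in control cells, also separate and not past the threshold (-0.084 ± 0.038, adjusted p = 0.18). Npm1, with 723, 762, 777 and 736 CPM in DEX cells and 787, 781, 856 and 839.7 CPM in control cells, was the same in this respect (-0.12 ± 0.044, adjusted p = 0.076), but DESeq2 called it lower (-0.13, adjusted p = 0.032). Ncl, with 562, 582, 607 and 561 CPM in DEX cells and 574, 548, 595 and 580.4 CPM in control cells, and Fbl, with 119, 103, 98.5 and 99.2 CPM in DEX cells and 113, 103, 104 and 114 CPM in control cells, overlapped (0.0090 ± 0.044 and -0.046 ± 0.060).

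The difference between the DEX effects at 25 h and 17 h was itself tested, as 25 h minus 17 h. It was below 0 for 18 members (45%, beside 8.27% of all genes) and above 0 for none (beside 7.91%). For a call above 0, DESeq2 and limma-voom gave none either, and 26 members had an unadjusted p under 0.05 in either direction. The largest differences were those of Rrp12 (-0.52 ± 0.086), Nolc1 (-0.50 ± 0.078) and Rrp1b (-0.44 ± 0.070). At 25 h Rrp12 had 37.2, 36.1, 38.3 and 30.03 CPM in DEX cells and 37.7, 38.2, 37.9 and 34.9 CPM in control cells, and Rrp1b had 31.3, 29.7, 30.6 and 29.6 CPM in DEX cells and 31.8, 32.3, 32.97 and 29.9 CPM in control cells. Both overlapped, where at 17 h neither did. By role the 18 were 6 of 12 small-subunit genes, 6 of 10 large-subunit genes, 3 of 7 Pol I genes, Nop56, Nolc1 and Myc (-0.33 ± 0.11, adjusted p = 0.036). The difference did not pass for Nhp2 (-0.16 ± 0.10) or Bop1 (0.16 ± 0.064), the members that differed at 25 h, nor for Npm1 (0.072 ± 0.063), Ncl (-0.022 ± 0.062), Ubtf (0.047 ± 0.055), Polr1b (-0.22 ± 0.091), Rrn3 (-0.067 ± 0.074) and Fbl (-0.16 ± 0.085). Myc's difference missed the threshold in 6 of the 16 fits that left out 1 library (adjusted p from 0.051 to 0.068), and that of Wdr43 in 9 and of Nat10 in 7. Without DEX replicate 2 of 17 h, 23 members were below 0.

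**Figure D4:**
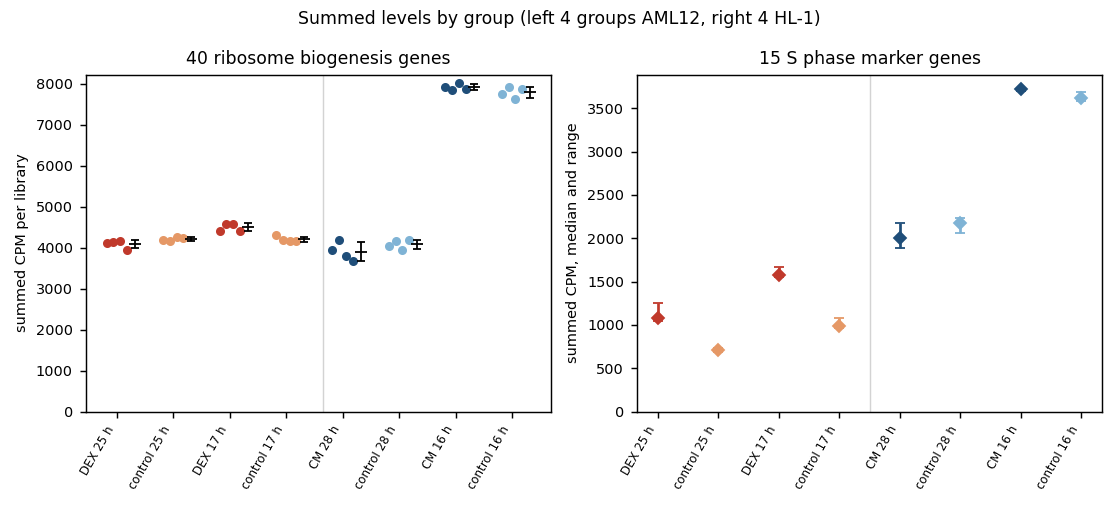
Left, summed CPM of the 40 members in each library (points), with group mean and SD; right, median and range over the 4 libraries of the summed CPM of 15 S phase marker genes. The members stand highest in HL-1 at 16 h and, within AML12, in DEX cells at 17 h, while S phase genes are also higher in DEX than in control cells at 25 h.

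Time changed these genes in AML12 as well, in both directions. In DEX cells 27 members were lower at 25 h than at 17 h (beside 28.2% of all genes) and 4 higher (beside 27.8%), with a median of -0.23. In control cells 15 were lower (beside 21.4%) and 7 higher (beside 22.1%), with a median of -0.024, and 16 lower and 4 higher when libraries were scaled by total counts only. The times did not overlap for 23 members lower and 3 higher at 25 h in DEX cells, where 23.1% of all genes lay in each direction. In control cells they did not overlap for 13 lower (beside 21.4%) and 7 higher (beside 22.2%). All 15 that fell in control cells also fell in DEX cells, and 11 further members fell in DEX cells without passing in control cells. Across the 40 members the changes in DEX and in control cells, which share no library, had r = 0.87 and rho = 0.81, given as a description of 40 genes measured in the same line. Without DEX replicate 2 of 17 h, 29 members were lower and 4 higher in DEX cells.

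The 3 largest falls in each treatment were those of snoRNP genes. Nop58, with 45.3, 49.4, 56.1 and 47.9 CPM at 25 h and 83.3, 82.6, 78.95 and 81.2 CPM at 17 h in DEX cells, changed by -0.72 ± 0.057. In control cells it had 48.5, 44.4, 49.5 and 51.1 CPM at 25 h and 69.9, 68.2, 71.6 and 62.9 CPM at 17 h, a change of -0.49 ± 0.058. The times did not overlap in either. Nolc1 had 88.3, 90.9, 95.7 and 90.6 CPM in DEX cells and 88.8, 90.8, 94.9 and 94.2 CPM in control cells at 25 h, all below the values of 17 h given above (-0.91 ± 0.055 and -0.41 ± 0.056). Nop56 had 82.03, 76.02, 82.5 and 86.3 CPM in DEX cells and 78.6, 85.2, 80.3 and 84.01 CPM in control cells at 25 h, likewise separate from 17 h (-0.81 ± 0.043 and -0.40 ± 0.044). Nhp2 changed by -0.60 ± 0.070 in DEX cells and -0.44 ± 0.072 in control cells, without overlap. Rrp12 had -0.72 ± 0.060 in DEX cells and -0.20 ± 0.061 in control cells, Gnl3 -0.61 and -0.25, and Ltv1 -0.58 and -0.36.

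Bop1 rose at 25 h, by 0.54 ± 0.046 in DEX cells and 0.38 ± 0.045 in control cells, and so did Ubtf, by 0.30 ± 0.039 and 0.25 ± 0.039. Utp20 had 81.1, 78.4, 83.9 and 74.5 CPM at 25 h and 66.3, 68.7, 70.7 and 66.5 CPM at 17 h in DEX cells, a rise of 0.22 ± 0.046. It had 76.2, 77.4, 78.8 and 73.2 CPM at 25 h and 61.99, 63.6, 57.1 and 57.6 CPM at 17 h in control cells, a rise of 0.35 ± 0.047, and the times were separate in each. Nat10 rose in control cells, with 48.99, 47.9, 44.3 and 45.6 CPM at 25 h and 38.4, 39.1, 34.2 and 39.4 CPM at 17 h (0.31 ± 0.062), and did not pass in DEX cells (0.034 ± 0.062). Npm1 rose in DEX cells (0.13 ± 0.044), a call lost without DEX replicate 1 of 17 h or replicate 3 of 25 h (adjusted p = 0.060 and 0.054). Mybbp1a was the member that fell in DEX cells (-0.14 ± 0.038) and rose in control cells (0.0999 ± 0.039), where its call was lost in 6 of 8 fits that left out 1 library (adjusted p from 0.058 to 0.10). Myc rose in control cells (0.22 ± 0.075, adjusted p = 0.023), a call lost without control replicate 3 of 17 h or 2 or 3 of 25 h (adjusted p from 0.051 to 0.064), and did not pass in DEX cells (-0.11 ± 0.075).

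Of the 113 further biogenesis genes tested, 63 fell and 7 rose in DEX cells, beside 28.2% and 27.8% of all genes. In control cells 29 fell and 11 rose, beside 21.4% and 22.1% of all genes, so the share that fell was near that of all genes. The largest fall was that of Rrs1 in DEX cells (-0.81 ± 0.060) and of Esf1 in control cells (-0.46 ± 0.054). The MAX-binding antagonists Mxd1 and Mxd4 rose, by 0.75 ± 0.080 and 0.74 ± 0.042 in DEX cells and by 0.82 ± 0.079 and 0.44 ± 0.041 in control cells. snoRNA host genes moved against the snoRNP genes here: 5 of 9 rose in DEX cells and 7 in control cells, and none fell. Snhg1 rose by 0.87 ± 0.065 in DEX cells and 0.66 ± 0.063 in control cells, and Zfas1 by 1.02 ± 0.085 and 0.64 ± 0.081. Of 15 S phase markers 14 fell in DEX cells and 15 in control cells, with sums at 25 h of 1042 to 1248 CPM in DEX cells and 688 to 736 CPM in control cells, against 1549 to 1666 CPM and 966 to 1076 CPM at 17 h. Of 8 hepatocyte markers tested 4 rose and 1 fell in DEX cells, with a sum over the list of 429 to 449 CPM at 25 h and 301 to 319 CPM at 17 h, while in control cells 1 rose and the sums overlapped (402 to 443 CPM at 25 h and 410 to 448 CPM at 17 h). In DEX cells the sum of the cardiomyocyte markers was 87.4 to 94.1 CPM at 25 h and 76.1 to 83.0 CPM at 17 h, and that of the immune cell markers 13.03 to 14.4 CPM and 7.74 to 10.9 CPM. Both of these sums overlapped between the times in control cells. Only 3 of the 8 cardiomyocyte genes found in AML12 (Tnnt2, Gata4 and Nkx2-5) were over 1 CPM. Of the 4 immune cell genes found, 2 were over 1 CPM (Csf1r and Cd68). The other genes of these lists were near 0, so the sums do not show cells of those kinds. The part of these markers in the fall of the members was not tested. The members' changes over time in AML12 control cells were only weakly related to those in HL-1 control medium (r = 0.19, rho = 0.12 over 40 genes), and the hours sampled differ between the lines.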

How the data were processed

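Total RNA of 32 libraries was measured by RNA-seq. For each line the authors deposited a table of raw read counts, whole numbers with 1 row for each gene, and per the submitters' processing notes FastQC 0.11.8 and STAR were used with mm10/GRCm38. The sources used here do not give the counting program, its strand setting or the annotation. Library totals were 15032450 to 19304043 counts. The standard errors of log2 fold changes include the spread between libraries. They were 0.036 to 0.12 for the members in the comparisons of 2 groups.

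Counts were tested in R 4.3.3 with edgeR 4.0.16 (quasi-likelihood test, TMM scaling), with 1 fit per line over its 4 groups. Genes with low counts were removed by filterByExpr, which left 14114 genes in AML12 and 14450 in HL-1. P-values were adjusted by Benjamini and Hochberg over all genes tested, and an adjusted p under 0.05 was called. The ± after a log2 fold change is its standard error, and 95% intervals are ± 1.96 standard errors. CPM values use TMM-scaled totals, and values per kilobase use GENCODE M21 exon lengths (GRCm38). The fit was tested on simulated data. Promoter windows of 300 bases came from RefSeq (GRCm38.p6).

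Alternatives were RLE size factors, total counts without TMM, no filter on low counts, DESeq2 1.42.0, limma-voom (limma 3.58.1), the replicate number as a block, thinning to the lowest total, fitting only the groups compared, and leaving out each library in turn. The 40 members and the other lists were chosen with earlier results of these data known. Any member could be named. Every library's value was given for up to 5 called members each way with the largest changes between treated and control cells, for up to 3 each way in other comparisons, and for Myc, Polr1b, Rrn3, Ubtf, Ncl, Npm1 and Fbl. Of the other lists up to 3 called genes each way were named by size of change. Max was added after its values were seen. No pair of replicates agreed within sampling noise (chi-square per degree of freedom 2.02 to 17.3).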

Additional observations from a re-analysis of the deposited data

Results flagged for a closer look

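In 27 of 320 sets of 4 libraries (40 members in 8 groups) the highest or the lowest library stood apart from the other three by Dixon's criterion, where chance gives about 1 in 20, or 5%. Of these, 4 came from AML12 control replicate 1 at 17 h, which was high in Ubtf (211 CPM, next 201), Ncl (637 CPM, next 596), Nolc1 (134.9 CPM, next 119) and Wdr43 (67.7 CPM, next 59.7). AML12 DEX replicate 2 at 17 h was low in Polr1c (106 CPM, next 155) and Fbl (102.5 CPM, next 119) and high in Npm1 (749 CPM, next 668). DEX replicate 3 at 17 h was high in Ubtf (195 CPM) and Rrp12 (61.5 CPM).

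HL-1 CM replicate 2 at 28 h was high in Polr1b (23.6 CPM, next 20.0), Ubtf (146 CPM, next 135) and Rrp12 (17.7 CPM, next 13.8). Also at 28 h, control medium replicate 3 was low in Fbl (56.1 CPM) and replicate 1 low in Utp20 (89.8 CPM). At 16 h, CM replicate 3 was high in Ltv1 (71.6 CPM) and control medium replicate 3 low in Pes1 (123 CPM, next 128). AML12 DEX cells at 25 h had 1 low value of Rrn3 in replicate 4 (41.8 CPM) and 1 high value of Nop10 in replicate 3 (56.0 CPM).

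In AML12 control cells at 25 h, replicate 2 was low in Nop10 (45.7 CPM), Wdr75 (29.3 CPM) and Nop14 (47.4 CPM), replicate 3 high in Utp15 (48.7 CPM) and Wdr43 (58.4 CPM), and replicate 4 low in Rrp12 (34.9 CPM). In AML12 control cells at 17 h, replicate 3 was low in Nop14 (45.2 CPM), and replicate 4 was low in Bop1 (158 CPM) and high in Rrp1b (37.0 CPM).

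The effect of DEX differed between 25 h and 17 h, by the edgeR test of that difference with Benjamini-Hochberg adjustment, in 18 members, all with a lower effect at 25 h. On the log2 scale the difference was -0.52 for Rrp12, -0.50 for Nolc1, -0.44 for Rrp1b, -0.42 for Rrp9 and -0.41 for Nop56. It was -0.40 for Nop2, -0.39 for Heatr1, -0.36 for Gnl3, -0.33 for Polr1a and -0.33 for Myc. It was -0.29 for Noc2l, -0.27 for Nop14, -0.27 for Nat10 and -0.25 for Tcof1. The smallest were -0.24 for Mybbp1a, -0.24 for Wdr43, -0.24 for Ddx21 and -0.17 for Pes1.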

How the results depend on the processing

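The counts of members at 28 h against 16 h in HL-1 (39 lower, none higher, in CM and in control medium) and of CM against control medium at 16 h (none) were the same under all 8 other ways of processing and in every fit that left out 1 library, and no member passed for the change of the CM effect in any of them. Both tests of a change of effect use all groups of a line, so fitting only the groups compared was not run for them. For DEX against control at 17 h, other settings gave 23 to 25 higher and 3 lower, and leaving out 1 library 22 to 27 higher and 3 lower. For DEX against control at 25 h, members lower numbered 2 with DESeq2, 3 on thinning to the lowest total, 3 on fitting only the groups compared and 1 to 2 when 1 library was left out, and members higher 0 to 1 when 1 library was left out. For the change of the DEX effect, 1 member was higher with total counts only (Bop1, 0.20) and 0 to 1 when 1 library was left out, and 14 to 23 were lower. For 25 h against 17 h in AML12 control cells, 4 members were higher with total counts only. When 1 library was left out, 4 to 7 were higher and 12 to 14 lower, where all libraries gave 15 lower. Other settings gave 15 to 16 lower. In DEX cells 25 to 29 members were lower and 3 to 4 higher when 1 library was left out. Other settings gave 25 to 28 lower and 4 higher in DEX cells. For CM against control medium at 28 h, 0 to 3 members were lower when 1 library was left out. Polr1c at 25 h against 17 h in DEX cells had 0.0067 over all libraries and -0.12 (adjusted p = 0.027) without DEX replicate 2 of 17 h, which held the lowest Polr1c level of its group, within a range of -0.12 to 0.059 when 1 library was left out. Why the other calls moved was not tested.

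Of 182 calls on single members 160 held under every alternative and 22 were lost under at least 1. Replicate numbers did not pair the samples: deviations of same-numbered samples correlated at -0.12 to 0.12. With the replicate block, 25 members were higher and 3 lower with DEX at 17 h, and 17 lower in the change of the DEX effect, and every other count of members was as without the block, although at 25 h against 17 h in DEX cells Fbl was called lower with the block (-0.14, adjusted p = 0.030) and Rrn3 was not (-0.13, adjusted p = 0.051). No scaling moved the median of all genes by over 0.1 on the log2 scale.

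Standard errors of 0.036 to 0.12 on the log2 scale set the smallest changes between groups that these data resolve. The labels give no batch, so none could be checked. CPM carries no information on RNA per cell.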

Other observations

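In AML12 at 25 h 15 of 15 S phase markers were higher in DEX cells than in control cells, while 1 of the 40 ribosome biogenesis genes was higher and 1 lower. Across the 40 members the size of the DEX effect at 17 h in AML12 was inversely related to the change over time in HL-1 control medium, with which it shares no library (Pearson's r = -0.43, Spearman's rho = -0.62). The members that gained most with DEX at 17 h, such as Nolc1 (0.48), Rrp12 (0.45) and Nhp2 (0.43), were among those with the larger falls in HL-1 (-1.28, -1.53 and -1.49). Rrp1b (0.37 with DEX at 17 h) went against this, since it fell least after Pes1 among the large-subunit genes in HL-1. The relation is a description across genes, which are not independent replicates. Gene-specific features such as length and level are shared by both measures.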
